A study of Mus musculus with 6 samples.

Results

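Met, Lyn, Epha7, Shb, Ptpn3 and Ptprz1 are 6 genes of tyrosine phosphorylation signalling. With earlier results of these data known, they were chosen by name among the 53647 genes of the deposited table and found by Ensembl identifier. They were measured by RNA sequencing in the mouse mammary cancer line D2.OR, known for tumour cells that spread and then lie dormant. The cells carried a lentiviral hairpin RNA against SLX4IP (shSLX4IP, 3 libraries) or a scrambled, non-targeting hairpin (Scram, 3 libraries). All cells had been selected with puromycin and were harvested after 7 days on a cushion of Cultrex (extracellular matrix of basement membrane type), fed with 10% serum and 5% Cultrex in the medium. SLX4IP is a partner of SLX4, a scaffold for nucleases, and is known from telomere biology; the design asks how its depletion changes the transcriptome. The labels describe 1 hairpin per group and no cloning step. The libraries of a group are called biological replicates with no word on separate cultures, so the p-values measure the spread between these libraries, part of which may be technical.

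Receptor tyrosine kinases such as MET and EPHA7 span the membrane, bind a ligand outside the cell and phosphorylate tyrosines on themselves and on other proteins inside it. Src-family kinases such as LYN lie on the inner face of the membrane and relay such signals, and adaptors such as SHB dock on the phosphorylated tyrosines through an SH2 domain. Tyrosine phosphatases such as PTPN3 and PTPRZ1 remove the phosphate. MET, the receptor for hepatocyte growth factor, is known in breast epithelium for driving scattering and invasion, and LYN, best known from blood cells, is also expressed in some breast cancers.

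Of these 6 genes, 4 were above 0 and tested, and 2 (Epha7 and Ptprz1) were listed at 0 in all 6 libraries. Lyn rose about 7-fold in shSLX4IP cells and Ptpn3 fell to about 0.518 of its Scram mean. The values of Met were higher and those of Shb lower in each shSLX4IP library than in any Scram library, but neither passed the test. Among all 8127 features tested, 23% passed and the groups did not overlap in 53.5%. Values are normalised read counts, that is, the reads of a gene over a size factor of its library, in the form the authors deposited. Fold changes are shSLX4IP over Scram on the log2(value + 1) scale from limma, with the standard error (SE) of the fit, and p-values were adjusted by Benjamini and Hochberg over all features whose mean value reached 10, with 0.05 as the threshold.

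The 6 genes lie in 2 of the 4 chromosome segments in which the values were high gene after gene, chromosome 4 from 3574875 to 59904737 and chromosome 6 from 3372257 to 30509783 (GENCODE M21, GRCm38). Outside the segments many genes that every cell uses are listed at 0, so gene symbols are read here only inside them and on the mitochondrial genome, for 462 of the features tested, called placed features. Slx4ip itself, on chromosome 2, lies outside and was listed at 0 in all 6 libraries, so it could not serve to check the labels. Of 20 markers fixed for mammary epithelium and other cell types, 1 was placed (the collagen gene Col1a2), so the cell type could not be checked either. The recovered depth was 5433573 to 6693111 reads per library. The library Scram A stood apart. Its deposited values summed to 8.95e+06, against 5.28e+06 to 5.97e+06 in the other 5 libraries. It had 8464 features above 0, against 10548 to 11611 in the other 5, at a recovered depth within their range. Its values were also shifted by gene length. Among placed nuclear genes whose mean reached 100, genes were grouped by total exonic length. Scram A over the mean of Scram B and C had a median log2 value of 0.84 in the 118 shortest genes and -0.27 in the 118 longest.

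The start regions of 4 of the genes are shown because they set the 2 members with the highest Scram values beside the 2 listed at 0. These values are not divided by length, and per kilobase of exon Shb and Ptpn3 were the highest in Scram. Each line gives the 250 bases before the gene's start in RefSeq (GRCm38.p6), 5′ to 3′ on the gene's strand. Every CG dinucleotide is in capitals, the main site of DNA methylation in vertebrates. Met is chr6:17463707-17463956 on the plus strand, Ptpn3 is chr4:57301838-57302087 on the minus strand, Epha7 is chr4:28812881-28813130 on the plus strand and Ptprz1 is chr6:22875252-22875501 on the plus strand. The M21 gene model of Met begins at 17463800, so part of its window lies inside that model.
Met: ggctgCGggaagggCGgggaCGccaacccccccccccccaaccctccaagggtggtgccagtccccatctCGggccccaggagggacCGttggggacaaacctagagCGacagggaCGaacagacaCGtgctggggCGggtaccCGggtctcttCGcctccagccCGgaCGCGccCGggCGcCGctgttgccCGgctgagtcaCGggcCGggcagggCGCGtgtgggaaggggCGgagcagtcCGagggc
Ptpn3: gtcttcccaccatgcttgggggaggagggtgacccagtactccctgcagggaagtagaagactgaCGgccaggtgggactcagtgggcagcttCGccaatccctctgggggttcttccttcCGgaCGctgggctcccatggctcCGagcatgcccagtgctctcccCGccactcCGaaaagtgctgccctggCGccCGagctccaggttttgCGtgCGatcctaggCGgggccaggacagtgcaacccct
Epha7: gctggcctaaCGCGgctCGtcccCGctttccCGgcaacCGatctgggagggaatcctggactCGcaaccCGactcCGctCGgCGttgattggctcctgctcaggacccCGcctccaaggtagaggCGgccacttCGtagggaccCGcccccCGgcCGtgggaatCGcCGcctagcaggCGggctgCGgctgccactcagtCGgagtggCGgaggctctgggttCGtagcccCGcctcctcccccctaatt
Ptprz1: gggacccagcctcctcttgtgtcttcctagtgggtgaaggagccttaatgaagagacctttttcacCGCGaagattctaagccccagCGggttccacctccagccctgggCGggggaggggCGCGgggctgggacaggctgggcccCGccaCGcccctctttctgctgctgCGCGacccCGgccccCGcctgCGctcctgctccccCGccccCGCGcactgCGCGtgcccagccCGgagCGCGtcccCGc

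The motif CG reads the same on both strands. It occurs 24 times in the window of Met, 12 times in that of Ptpn3, 25 times in that of Epha7 and 22 times in that of Ptprz1. The median over all 32851 windows of this kind is 6. As many or more CG were found in 12.0% of all windows for Met, 33.5% for Ptpn3, 10.7% for Epha7 and 14.8% for Ptprz1. A further RefSeq window of Epha7, chr4:28812895-28813144, holds 23 CG. The 2 genes listed at 0 thus had more CG in these windows than Ptpn3, and Ptprz1 had fewer than Met. These counts describe the reference sequence and not its methylation, which was not measured. RefSeq windows were at hand for 5 of the 6 genes, all but Lyn. The window of Shb, not shown, holds 22 CG and lies inside the M21 gene model of Shb.

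The receptor tyrosine kinase gene Met (ENSMUSG00000009376.16, chromosome 6, 17463800 to 17573980, 7679 exonic bases) had normalised read counts of 4501, 4524 and 4356 in shSLX4IP A, B and C, against 2339, 4274 and 3186 in Scram A, B and C. The shSLX4IP libraries lay close together and all above the Scram libraries, with Scram A the lowest and Scram B close to the shSLX4IP values. The means were 4460 ± 90.8 in shSLX4IP and 3266 ± 970 in Scram (SD, n = 3 each). The log2 fold change of 0.49 (SE 0.23, 95% interval -0.09 to 1.07) did not pass in limma (adjusted p = 0.179). It was 0.27 without Scram A (adjusted p = 0.169) and 0.71 without Scram B (adjusted p = 0.0502). It was 0.98 after quantile normalization (adjusted p = 0.0679) and 0.84 in CPM, the recovered reads scaled to an equal total per library (adjusted p = 0.167).

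Epha7 (ENSMUSG00000028289.13, chromosome 4, 28813131 to 28967499), a receptor for ephrin-A ligands that is known from the developing nervous system, was listed at 0 in each shSLX4IP and each Scram library. Musk, the receptor kinase of the neuromuscular junction, was the 1 other placed gene of 56 receptor tyrosine kinases in the list used here. It was listed at 0 in the 3 shSLX4IP libraries and in Scram A and C, and at 7.47 in Scram B. Met was thus the one receptor tyrosine kinase with more than a trace of reads among the 3 that could be read. The nearest coding genes on either side of Epha7 had reads, so the stretch around it was not empty. Manea, a mannosidase of the Golgi, was at 1909 in shSLX4IP and 573 in Scram on average, and Map3k7, the kinase TAK1, at 2793 and 4257.

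Lyn, the Src-family kinase gene (ENSMUSG00000042228.15, chromosome 4, 3678115 to 3813122, 4073 exonic bases), showed the clearest difference of the 6 genes. Its normalised read counts were 1464, 1542 and 1535 in shSLX4IP A, B and C, against 152, 209 and 274 in Scram A, B and C. The lowest shSLX4IP library stood far above the highest Scram library. The means were 1514 ± 43.3 in shSLX4IP and 212 ± 61.1 in Scram (SD, n = 3 each), a ratio of 7.14. The log2 fold change was 2.87 (SE 0.25, 95% interval 2.25 to 3.49, limma adjusted p = 0.00137). These values rest on 1616, 1580 and 1928 recovered reads in shSLX4IP and 104, 224 and 301 in Scram. An exact Poisson interval of 95%, which covers counting error only, runs from 85.0 to 126 reads for Scram A, the thinnest of them. Lyn kept its call in each of 19 other settings, with log2 fold changes from 2.65 (without Scram A) to 3.21 (CPM) and adjusted p up to 0.0114. In annotation, 248 exonic bases of Lyn (6.09%) overlap a long non-coding gene on the other strand, Gm26857, whose M21 identifier had no row, and without strand in the counting their reads there would be joined. No other Src-family or cytoplasmic tyrosine kinase of the 31 listed was placed.

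**Figure D1:**
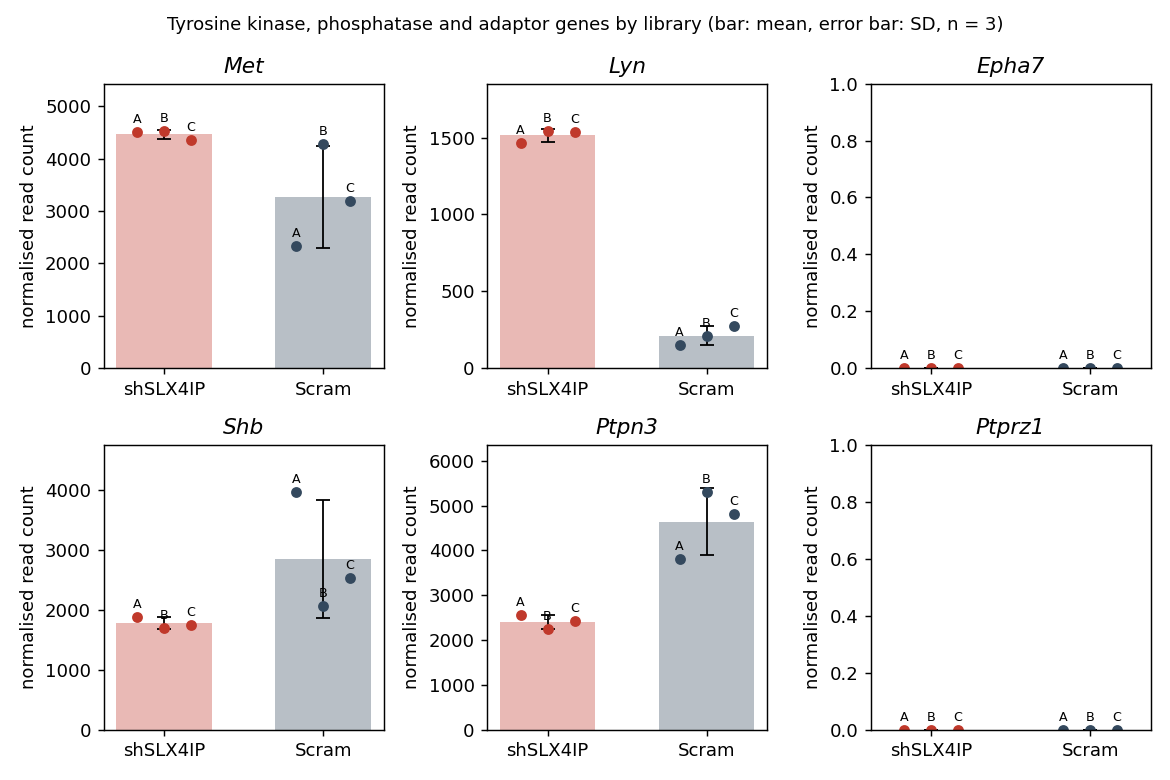
Normalised read count (vertical axis, from 0) of each gene in the 3 shSLX4IP and 3 Scram libraries; points are libraries A, B and C, bars are means and error bars SD. Lyn at 1464 to 1542 in shSLX4IP stands apart from 152 to 274 in Scram, Ptpn3 is lower in shSLX4IP, the Scram points of Met and Shb spread widely with Scram A at one end, and Epha7 and Ptprz1 are at 0.

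Shb (ENSMUSG00000044813.16, chromosome 4, 45423278 to 45532470, 3199 exonic bases) encodes an SH2 adaptor that couples growth factor receptors to downstream signalling. Its normalised read counts were 1886, 1694 and 1740 in shSLX4IP A, B and C, against 3960, 2057 and 2527 in Scram A, B and C. Each shSLX4IP library lay below each Scram library, though shSLX4IP A and Scram B were close, and Scram A was far above the rest. The means were 1773 ± 100.5 in shSLX4IP and 2848 ± 991 in Scram (SD, n = 3 each). The log2 fold change of -0.63 (SE 0.26, 95% interval -1.28 to 0.02) did not pass in limma (adjusted p = 0.137). It was -0.36 without Scram A (adjusted p = 0.0569), -0.28 in CPM (adjusted p = 0.175) and -0.25 with quantile normalization (adjusted p = 0.239). The one setting in which it passed was DESeq2 on recovered reads (adjusted p = 0.0400). Of 55 other adaptors listed, 2 were placed. Cd72, a B-cell surface protein with inhibitory tyrosine motifs, was at 6.34, 9.76 and 24.7 in shSLX4IP and 26.4, 58.9 and 37.4 in Scram (adjusted p = 0.112). Sit1, a transmembrane adaptor of lymphocytes, was at 0, 0 and 5.57 in shSLX4IP and 14.6, 14.0 and 17.3 in Scram and was too low to be tested.

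Ptpn3 (ENSMUSG00000038764.15, chromosome 4, 57190841 to 57301837, 7238 exonic bases) encodes PTPH1, a cytoplasmic phosphatase with a FERM and a PDZ domain. Its normalised read counts were 2561, 2236 and 2416 in shSLX4IP A, B and C, against 3813, 5292 and 4822 in Scram A, B and C. Every shSLX4IP library was below every Scram library, and Scram A was the lowest of its group. The means were 2404 ± 163 in shSLX4IP and 4642 ± 756 in Scram (SD, n = 3 each). The log2 fold change was -0.94 (SE 0.17, 95% interval -1.35 to -0.53, limma adjusted p = 0.0136). It was -1.07 without Scram A (adjusted p = 0.00112), and the call was lost without Scram C (adjusted p = 0.0562) and without shSLX4IP A, B or C (0.0549, 0.0703 and 0.0650), with log2 fold changes of -0.98 to -0.89 in these fits. The call was also lost in CPM and after quantile normalization. It was kept in limma with TMM factors (adjusted p = 0.0222) and with recomputed DESeq2 size factors (0.0136). On recovered reads it was kept with edgeR (adjusted p = 0.0258) and DESeq2 (adjusted p = 6.2e-08). In CPM, Ptpn3 had values of 485, 421 and 453 in the shSLX4IP libraries A to C, against 426, 927 and 807 in the Scram libraries A to C, so that Scram A lay inside the shSLX4IP range (log2 fold change -0.59, adjusted p = 0.205). Quantile normalization gave -0.50 (adjusted p = 0.217). The gene shares 30 exonic bases (0.414%) with a non-coding gene on the other strand, Gm12536, whose mean value was 2.57.

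Ptprz1 (ENSMUSG00000068748.8, chromosome 6, 22875502 to 23052916), a receptor phosphatase of glia that binds pleiotrophin, was listed at 0 in each shSLX4IP and each Scram library. None of the 36 other classical tyrosine phosphatases listed was placed. On one side of Ptprz1 the secreted protein gene Fam3c averaged 1467 in shSLX4IP and 1877 in Scram, and on the other side the nearest 5 coding genes were all listed at 0. Ptprz1 and Epha7 are 2 of 148 genes listed at 0 in every library among 569 placed protein-coding nuclear genes.

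**Figure D2:**
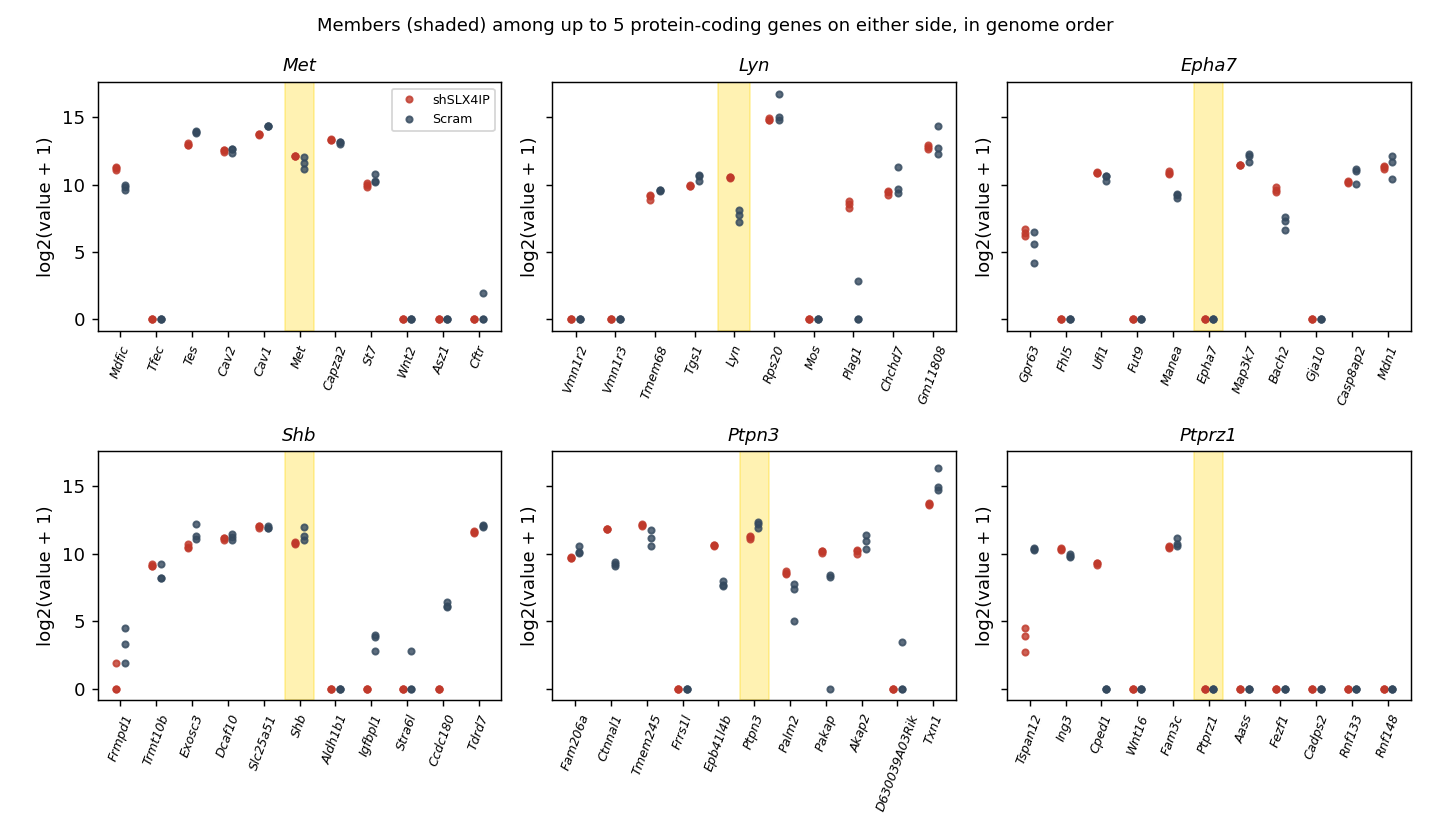
Log2(value + 1) of each gene (shaded) and of up to 5 protein-coding genes on either side, in genome order, with 3 shSLX4IP points (red) left of 3 Scram points (dark) for each gene. The shSLX4IP points of Lyn lie above its Scram points, those of its nearest neighbour Tgs1 below them and those of Rps20 within their range, Epha7 at 0 lies between genes with reads, and Ptprz1 at 0 begins a run of genes at 0.

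The nearest coding genes did not share one direction with the members. Next to Lyn lies Tgs1, whose protein methylates the cap of small nuclear RNAs. Tgs1 was at 971 in shSLX4IP and 1489 in Scram on average (limma adjusted p = 0.0569). The ribosomal protein gene Rps20, on the other side, was at 29571 and 57168 (limma adjusted p = 0.386). Epb41l4b, a FERM-domain gene beside Ptpn3, rose to 1591 in shSLX4IP, against 215 in Scram (log2 fold change 2.89, SE 0.17, limma adjusted p = 0.000475). Palm2, a paralemmin gene on its other side, was at 392.1 in shSLX4IP and 136 in Scram (log2 fold change 1.92, adjusted p = 0.118). Cav1, beside Met, fell to 13833 in shSLX4IP, against 21100 in Scram (adjusted p = 0.00847), while Capza2, an actin-capping gene on the other side, was at 10236 and 9012 (adjusted p = 0.244). Slc25a51, a mitochondrial carrier beside Shb, was at 4116 and 4030 (adjusted p = 0.867), and Aldh1b1 on the other side was listed at 0. The call of Cav1 was lost in 7 of 19 other settings.

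Per kilobase of exon, the order of the 4 genes differed between the groups. The mean levels in shSLX4IP were 581 ± 11.8 for Met, 554 ± 31.4 for Shb, 372 ± 10.6 for Lyn and 332 ± 22.5 for Ptpn3 (normalised read count per kilobase, SD, n = 3). Met and Shb overlapped between libraries there, and Lyn and Ptpn3 lay just apart. In Scram the order was Shb at 890 ± 310, Ptpn3 at 641 ± 104, Met at 425 ± 126 and Lyn at 52.0 ± 15.0. The first 3 overlapped with their neighbours in that order, and Lyn was apart from them. Ranked by value per kilobase within each library, Lyn was 141st, 134th and 129th of 569 placed protein-coding genes in shSLX4IP A, B and C, and 293rd, 292nd and 282nd in Scram A, B and C. Ptpn3 was 145th, 162nd and 148th in shSLX4IP, and 130th, 91st and 102nd in Scram, which is the smaller shift. Met ranked 97th to 101st in shSLX4IP and 114th to 176th in Scram. Shb ranked 99th to 108th in shSLX4IP and 72nd to 106th in Scram, and these ranks overlap.

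The ratio of 2 genes within a library does not depend on its size factor. The kinase to phosphatase ratio of Lyn to Ptpn3, per kilobase, was 1.02, 1.23 and 1.13 in shSLX4IP A, B and C, against 0.0710, 0.0703 and 0.101 in Scram A, B and C. The mean log2 ratio was 0.16 ± 0.14 in shSLX4IP and -3.65 ± 0.30 in Scram (SD, n = 3 each), a difference of 3.82. Scram A lay within the range of its group here. The ratio of Met to Ptpn3 was 1.66, 1.91 and 1.70 in shSLX4IP and 0.578, 0.761 and 0.623 in Scram, a difference of 1.43 on the log2 scale. Both ratios were higher in every shSLX4IP library than in any Scram library. Shb to Ptpn3 overlapped between the groups, at 1.67, 1.71 and 1.63 in shSLX4IP and 2.35, 0.879 and 1.19 in Scram. Lyn to Met, which were both higher in shSLX4IP, was 0.613, 0.643 and 0.664 in shSLX4IP and 0.123, 0.0923 and 0.162 in Scram, a difference of 2.38. The ratios of Lyn or Met to Ptpn3 or Shb could not overlap, since the values of each gene did not and the directions were opposite, so the ratios are given as descriptions with no test. Unequal change in a ratio does not say which of its genes changed.

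The spread within the groups was unequal. The highest over the lowest shSLX4IP library was 1.05 for Lyn, 1.04 for Met, 1.11 for Shb and 1.15 for Ptpn3, against 1.80, 1.83, 1.92 and 1.39 in Scram. Set against Scram B and C averaged, Scram A was at -0.66 for Met, -0.65 for Lyn, -0.41 for Ptpn3 and 0.80 for Shb on the log2 scale. Shb has the shortest total exonic length of the 4 genes and falls in the shortest length class, Met and Ptpn3 in the longest and Lyn in the middle one. With a trend with exonic length removed from each library over placed nuclear genes, the log2 fold changes were 0.32 for Met (adjusted p = 0.108), 3.03 for Lyn (0.000180), -0.36 for Shb (0.0662) and -1.08 for Ptpn3 (0.000177). The calls were the same as in the main fit. The fit with the trend removed covered the 431 placed nuclear features only, so its adjusted p are not comparable with those over all features. Over placed features only and without the removal, the limma adjusted p was 0.000237 for Lyn and 0.00310 for Ptpn3. In a bulk library, fewer cells with a message and less of it per cell cannot be told apart.

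**Figure D3:**
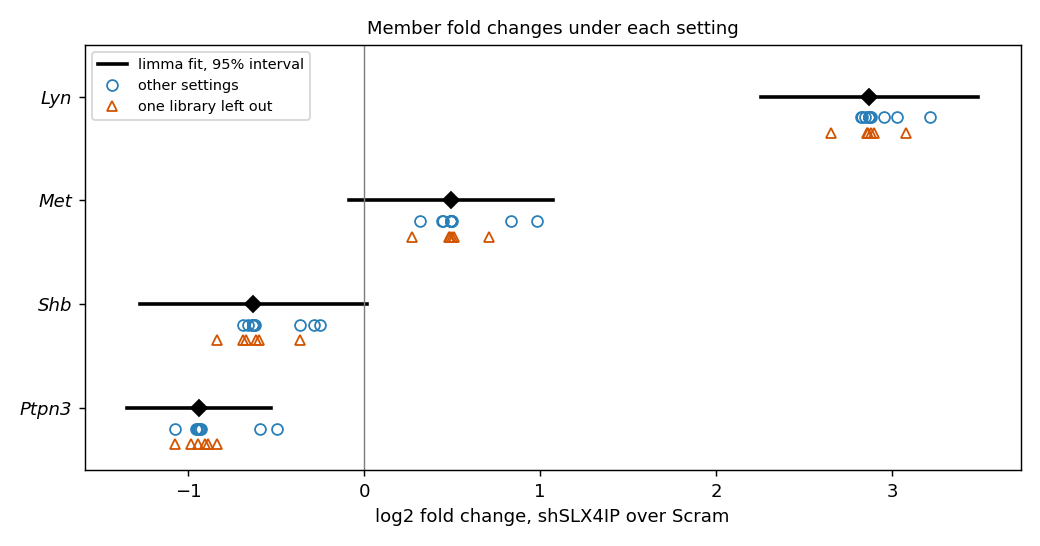
Log2 fold change, shSLX4IP over Scram, of the 4 genes above 0: diamonds and bars are the limma fit with its 95% interval, circles are other settings and triangles leave out 1 library each. Lyn stays between 2.65 and 3.21, and Met, Shb and Ptpn3 keep their sign in each setting.

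Limma called 1 of the 4 higher (Lyn) and 1 lower (Ptpn3), where 40.3% of the 462 placed features and 23% of all 8127 features were called. By direction, 17.3% of placed features were higher and 22.9% lower. The share of placed features called was 36.8% with edgeR and 60.2% with DESeq2 on recovered reads (19.3% and 39.7% of all features), 65.2% without Scram A, 54.8% when adjusted over placed features only and 63.3% of placed nuclear features with the length trend removed. The 2 calls among 4 genes are thus near the background. The groups did not overlap in any of the 4 genes, and neither did they in 67.1% of placed features and 53.5% of all features. In CPM the groups did not overlap in 3 of the 4, in 63.0% of placed features and in 54.4% of all features. By size of fold change Lyn was 61st, Ptpn3 216th, Shb 292nd and Met 327th of the 462. The median log2 fold change was -0.23 over placed features and 0.25 over all features, and it was 0.11 and 0.58 in CPM, so a log2 fold change moves by about that shift with the scale.

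**Figure D4:**
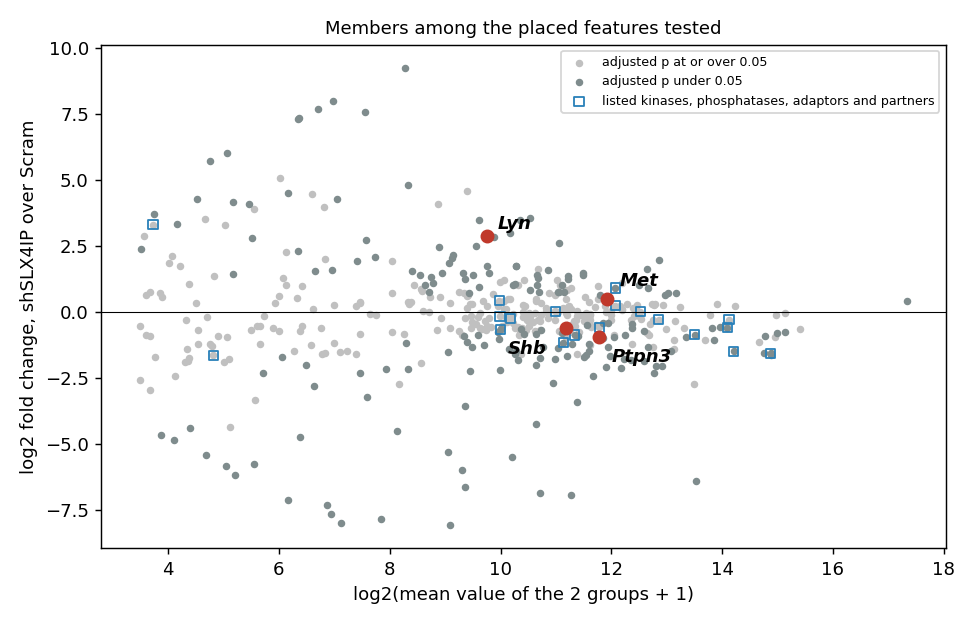
Log2 fold change, shSLX4IP over Scram, against the log2 mean value of the 462 placed features tested; dark points passed the threshold, blue squares are listed kinases, phosphatases, adaptors and partners, red points are Lyn, Met, Shb and Ptpn3. Lyn at 2.87 lies towards the upper edge for its level, and Met, Shb and Ptpn3 lie within the bulk of the points.

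Other listed genes could be read only where they were placed, 27 of 254, of which 19 had a mean value of at least 10. Of these 19, 9 came from the lists of tyrosine kinase signalling and 10 from a list of other kinases, phosphatases and related genes. Limma called 1 of the 19 higher and 7 lower, and 11 did not pass, where 17.3% of placed features were higher and 22.9% lower. Their median log2 fold change was -0.30, beside -0.23 over all placed features. Among 8 tested ligands, co-receptors and partners, Wasl, the N-WASP gene of actin nucleation downstream of receptor kinases, rose to 5582 ± 22.4 in shSLX4IP, against 3011 ± 473 in Scram (SD, n = 3 each; log2 fold change 0.90, adjusted p = 0.0124). The 14-3-3 protein gene Ywhaz fell to 9845 ± 110.1 in shSLX4IP, against 27977 ± 3232 in Scram (log2 fold change -1.50, adjusted p = 0.00107). Vcp, an ATPase that is a substrate of the human PTPN3 protein, fell to 14840 ± 162 in shSLX4IP, against 45246 ± 12356 in Scram (log2 fold change -1.57, adjusted p = 0.00477). Tes, a focal adhesion gene, and Cav1, the caveolin gene, also fell, with log2 fold changes of -0.87 and -0.61. Cav2, the syntenin gene Sdcbp and the talin gene Tln1 did not pass, with log2 fold changes of -0.0027 for Cav2 and -0.30 for both others. The low gene Cttnbp2 was not tested.

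Of the 10 tested genes of the list of other kinases, phosphatases and related proteins, 3 were lower and none higher at the adjusted threshold of limma, beside the same 22.9% and 17.3% of placed features. The list also holds genes that are neither, such as the guanylyl cyclase receptor gene Npr2 and the scaffold gene Ppp1r9a. Tesk1, a testis-type kinase that phosphorylates cofilin, fell to 1370 ± 154 in shSLX4IP, against 3114 ± 737 in Scram (log2 fold change -1.17, adjusted p = 0.0141). The mitotic kinase gene Melk fell to 1820 ± 69.6, against 3367 ± 481 (log2 fold change -0.88, adjusted p = 0.0122), and Mtmr12, a myotubularin relative without catalytic activity, to 794 ± 95.9, against 1255 ± 137 (log2 fold change -0.66, adjusted p = 0.0444). Map3k7, Npr2, Ppp1r9a, Ripk2, Rock1, Stk3 and Trio did not pass, with adjusted p from 0.0770 (Ppp1r9a, log2 fold change 3.31 at a mean of 21.8 in shSLX4IP and 2.73 in Scram) to 0.958 (Trio). Mos, Npr3, Pdk4, Ppp1r3a and Ppp3r2 were listed at 0 in every library. At an unadjusted p under 0.05, Ppp1r9a and Stk3 were the 2 higher of the 10, and DESeq2 called Stk3 (adjusted p = 0.00792) and edgeR none of them higher. Stk3 passed as higher in 5 of 19 other settings. In limma these included quantile normalization (adjusted p = 0.0196), CPM (0.0297) and adjustment over placed features only (0.0354).

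Several calls of these listed genes were lost in other settings, in part with little change in the fold. Ywhaz and Vcp kept theirs in each of 19 other settings. Without any 1 shSLX4IP library the adjusted p was 0.0620 to 0.0648 for Wasl, 0.0534 to 0.0608 for Melk and 0.0651 to 0.0806 for Cav1, and without Scram C it was 0.0522 for Cav1. The log2 fold changes in these fits were 0.90 to 0.91 for Wasl and -0.91 to -0.86 for Melk, and over all features the number called also fell in each of them, to 433 to 441 higher and 410 to 418 lower without 1 shSLX4IP library. Cav1 was also lost without the intensity trend (0.0819), in CPM (-0.26, adjusted p = 0.340) and after quantile normalization (-0.02, adjusted p = 0.965). Tesk1 lost its call without shSLX4IP A (0.0652) and B (0.0692), and Mtmr12 without any library other than Scram A (0.0785 to 0.138). Mtmr12 lost its call in 11 of 19 settings, also with TMM factors (0.0591), with edgeR (0.0668), without the filter (0.0886), without the intensity trend (0.0975), after quantile normalization (-0.43, adjusted p = 0.219) and in CPM (-0.32, adjusted p = 0.431). Tes lost its call after quantile normalization (-0.22, adjusted p = 0.501) and in CPM (-0.53, adjusted p = 0.0684). Without Scram A, Stk3 passed as higher (adjusted p = 0.0140), and Map3k7 (0.00132), Sdcbp (0.0316) and Tln1 (0.00881) as lower. Without Scram C, Ppp1r9a passed as higher (0.0227). Its Scram values were 0, 0 and 8.20 in A, B and C, so that fit compared with a Scram group at 0 throughout.

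The genes most alike to each member were sought among 354 placed nuclear genes, by the smallest root mean square difference of log2 values centred on their mean over the 6 libraries. Mob3b, a MOB kinase activator gene, was nearest to Lyn, with a difference of 0.150 and values of 1555, 1651 and 1735 in shSLX4IP and 141, 269 and 330 in Scram. Rragd, a Rag GTPase of mTORC1 signalling, came next at 0.206. Golph3 of the Golgi (0.0969) and the nucleolar gene Nol6 (0.120) were nearest to Ptpn3. Golph3 was at 3267, 3381 and 3535 in shSLX4IP and 4916, 7051 and 7051 in Scram, with Scram A the lowest of its group as for Ptpn3. Tmem106b, a lysosomal membrane gene (0.110), and the TGF-beta receptor gene Tgfbr1 (0.110) were nearest to Met, and Msantd3 (0.0943) and the mitochondrial ribosome gene Mrpl50 (0.0948) to Shb. Neither of the genes near Met nor of those near Shb passed the test, with adjusted p from 0.0947 to 0.228. The likeness covers 6 libraries of 2 groups and carries both the group difference and the offset of Scram A.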

How the data were processed

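RNA was sequenced from 6 libraries, 3 per group. The submitters' processing notes list StringTie 2.1.7, DESeq2 1.22.1, STAR 2.7.7 and fastp 0.19.5, with GRCm38 as build; tool roles, annotation release and strand setting: not given in the sources used here. Per the labels, the library kit keeps strand. What the authors deposited is a signal, whole reads over a size factor that each library has, by its values: 99.98% to 100% of those above 0 lay within 0.1 of a whole multiple of the column's lowest value. Columns carry letters that no label holds, so a letter names a library of its group. Identifiers were matched to GENCODE M21 without version (52093 of 53647), and segments were maximal-scoring runs of coding genes (mean of 1000 or more, score 3, otherwise -1, minimum 30).

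The test was limma 3.58.1 (R 4.3.3) on log2(value + 1), two-sided, with the variance trended on intensity, without a block, for features with a mean of at least 10. A fold change on this scale understates the change of low genes. edgeR 4.0.16 and DESeq2 1.42.0 on the recovered whole reads called 1566 and 3226 features, against 1872 by limma. The named genes are the 6 members, the placed listed genes whose mean reached 10, the nearest coding gene on either side and the 2 genes most alike to each member. Low or zero members of a list are named after their values were seen. The members and lists were chosen with earlier results of these data known. CPM was added after the values were seen.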

Additional observations from a re-analysis of the deposited data

How the results depend on the processing

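Met, Lyn, Shb and Ptpn3 kept their sign in 19 other settings, and Lyn its call. Met did not pass in any of them, with 0.98 after quantile normalization and 0.84 in CPM. Ptpn3 lost its call after quantile normalization (log2 fold change -0.50) and in CPM (-0.59), and its log2 fold change ran from -1.07 to -0.84 with 1 library left out, where it lost the call without Scram C or any 1 shSLX4IP library. Shb gained a call with DESeq2 (-0.69), with -0.84 to -0.36 over libraries left out. Members called lower were 0 after quantile normalization and in CPM, 2 with DESeq2 and 0 to 1 with 1 library left out. DESeq2 called 1602 features higher and 1624 lower and 165 placed features lower. With 1 library left out the counts ran from 433 to 1895 higher and 410 to 1573 lower, and from 40 to 134 and 58 to 167 among placed features, highest in each case without Scram A. With the length trend removed 131 placed features were higher. Of the listed genes, 2 were higher after quantile normalization, with DESeq2, with the length trend removed and in CPM, 3 when adjusted over placed features only, and 0 to 2 with 1 library left out. Lower were 11 with DESeq2 and with the length trend removed, 4 in CPM and 3 to 10 with 1 library left out. The cause was not tested. Some listed genes that did not pass changed sign. Cav2 was at 0.0049 with TMM factors, 0.50 after quantile normalization, 0.24 with the length trend removed, 0.34 in CPM, and from -0.10 to 0.049 with 1 library left out (above 0 without shSLX4IP C, Scram B or Scram C). Trio was at -0.085 with edgeR, -0.072 with DESeq2, -0.47 with the length trend removed, where it passed, and from -0.34 (without Scram A) to 0.31 with 1 library left out, and Rock1 at -0.19 with the length trend removed and from -0.14 (without Scram A) to 0.47. After quantile normalization and in CPM, Sdcbp was at 0.24 and 0.040, Tln1 at 0.33 and 0.040, Npr2 at 0.032 and 0.093 and Ripk2 at 0.10 and 0.18, and Ripk2 was at 0.15 with the length trend removed. No paired analysis was possible because the columns carry letters and no replicate numbers that the labels hold. Counting error, relative to the count, is largest where reads are few. For the 104 reads of Lyn in Scram A, the half-width of the exact Poisson interval was 19.7% of the count. It was 4.49% to 4.96% for Lyn in the shSLX4IP libraries. The 104 reads do not show a limit of depth, since Scram B had 224 at nearly the same depth (6112569 recovered reads, against 6110599 in Scram A).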
